A study of Homo sapiens with 10 samples.

Results

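The 8 annexin genes ANXA1, ANXA2, ANXA3, ANXA4, ANXA5, ANXA6, ANXA7 and ANXA11 were examined in NB4 cells, a line derived from acute promyelocytic leukemia. They were chosen by symbol and by their class as protein-coding genes, from 60603 genes in each table, of which 19975 are protein-coding. The family was proposed with earlier results of these data in view, so the levels below are a description. In the knockdown experiment, 6 libraries came from cells collected 48 h after lentiviral transduction. These cells carried pLKO.1 puro without an insert (EV) or with the hairpin shA1 or shB2, both directed against GSE1, with 2 libraries for each. In the inhibition experiment, 4 libraries came from cells kept for 24 h in DMSO or in 2 µM MC2580 (MC280 in the sample titles), an inhibitor of the histone demethylase LSD1, again with 2 libraries for each. The study compared each hairpin with EV and MC2580 with DMSO.

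Annexins are proteins that bind phospholipid membranes when calcium is present. Each has a core of annexin repeats, which carries the calcium sites, and a leading segment that differs between members and binds partners. They take part in membrane repair, vesicle traffic and the control of inflammation, and several are abundant in myeloid cells. ANXA1 is a mediator that dampens neutrophil responses through formyl peptide receptors, ANXA2 forms a complex with S100A10 at the cell surface, and ANXA5 is widely used to stain apoptotic cells.

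The calcium site that the members share is shown here in their coding sequence, because all 8 hold it. The sequences were read from GENCODE release 44 transcripts on GRCh38 and run 5′ to 3′ on the coding strand. Each shows 15 codons, and the 12 bases in capitals encode the motif of glycine, any residue, glycine and threonine. In the protein, 38 residues lie between this motif and an aspartate or glutamate.
ANXA1: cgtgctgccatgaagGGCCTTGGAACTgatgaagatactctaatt
ANXA2: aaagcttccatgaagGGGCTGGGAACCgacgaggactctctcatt
ANXA3: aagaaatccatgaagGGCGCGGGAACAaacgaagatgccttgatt
ANXA4: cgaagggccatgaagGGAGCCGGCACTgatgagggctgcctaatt
ANXA5: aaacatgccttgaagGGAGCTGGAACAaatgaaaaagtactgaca
ANXA6: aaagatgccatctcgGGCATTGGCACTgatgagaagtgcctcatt
ANXA7: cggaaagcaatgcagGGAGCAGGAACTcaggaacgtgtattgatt
ANXA11: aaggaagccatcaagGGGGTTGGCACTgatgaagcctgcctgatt

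No 2 of the members spelled this site with the same 12 bases. The capitals lie within exon 6 of the canonical transcript in ANXA1, ANXA2, ANXA3, ANXA4, ANXA5 and ANXA6, and within exon 9 in ANXA7 and ANXA11. In ANXA1 they span chr9:73160803-73160814 on the plus strand, and in ANXA2 they span chr15:60357225-60357236 on the minus strand. The site shown is the first of a pair of complete sites, which were searched for at a spacing of 150 to 170 residues. A further site downstream was therefore a condition of the choice. Within that window the spacing was 159 residues, or 160 in ANXA2. ANXA1 and ANXA2 held 2 complete sites each, while ANXA3, ANXA4, ANXA5, ANXA7 and ANXA11 held 3 and ANXA6 held 5. The search finds only this spelling of a calcium site.

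The members differed in what precedes the core. The site shown begins at residue 102 of ANXA5 and at residue 129 of ANXA1, but at residue 250 of ANXA7 and at residue 287 of ANXA11, which bear the long leading segments of the family. ANXA5 has 320 residues and ANXA11 has 505. ANXA6, at 673 residues, contains the core in duplicate, and its first and second parts were identical at 47.1% of 323 aligned residues. That is within the range found between separate members. Over all 28 pairs, the identity ran from 43.2% between ANXA1 and ANXA7 to 58.1% between ANXA4 and ANXA5, with a median of 48.7%. ANXA1 was closest to ANXA2, at 53.4%.

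The genes are dispersed over the genome. On GRCh38, ANXA3 (chr4:78551747-78610451, plus strand) and ANXA5 (chr4:121667946-121696995, minus strand) share a chromosome, as do ANXA7 (chr10:73375101-73414076, minus strand) and ANXA11 (chr10:80150889-80205572, minus strand). ANXA1 lies at chr9:73151865-73170393 on the plus strand, and ANXA2 at chr15:60347134-60402883 on the minus strand. ANXA4 lies at chr2:69644425-69827112 on the plus strand, and ANXA6 at chr5:151100706-151157815 on the minus strand. The span of a gene ranged from 18.5 kb for ANXA1 to 182.7 kb for ANXA4. The canonical transcript had 13 exons in ANXA1, ANXA2, ANXA3, ANXA4, ANXA5 and ANXA7, 16 in ANXA11 and 26 in ANXA6.

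The window from 250 bases before to 50 after the start site of the canonical transcript, taken from RefSeq on GRCh38.p14, set ANXA1 apart. It held 0 CpG dinucleotides and 37.7% G and C, against medians of 14 and 58.7% over 35116 such windows. Those of the other 7 members held between 23 and 36 CpG dinucleotides and between 64.7% and 76.3% G and C. ANXA5 was at the upper end of both ranges. ANXA11 has 3 such windows and ANXA4 and ANXA6 have 2 each, of which only that at the canonical start is described. ANXA3, the member with the lowest level in NB4 cells, had 25 CpG dinucleotides, as many as ANXA6.

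The level of each gene is given as the base mean, the authors' mean of size-factor-normalised counts over all libraries of an experiment. The base means of all genes summed to 40543130 in the knockdown experiment and to 41201112 in the inhibition experiment. A base mean pools treated and control libraries and comes with no replicate error, so it shows how strongly a gene was expressed in an experiment and not whether a treatment changed it. The depth of each library, its spread and the difference between groups were not analysed here. No test was therefore made. In bulk RNA, fewer cells that express a gene and less of its RNA per cell cannot be told apart.

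As a check of the label, the myeloid markers were read first. MPO, the peroxidase of promyelocyte granules, had a base mean of 506765 in the knockdown experiment and of 824818 in the inhibition experiment, and 5 of the 6 myeloid markers were at 10 or more in both. The exception was ELANE, neutrophil elastase, at 1.10 and 3.87. The lowest of those 5, AZU1, was at 723 and 1814, while KRT18 of the epithelial list was at 906 and 668. Of the markers of other cell types, those for red cells were at most 11.7 in base mean and 0 of 3 reached 10 in both experiments. The T cell list reached 10 in both with 1 of 3 genes, CD3D at 866 and 869, while CD3E stood at 1.55 and 2.98. For B cells 2 of 3 genes reached it, with a summed base mean of 150 and 147 and MS4A1 at 0.217 and 0. For platelets it was 1 of 3, ITGA2B at 660 and 549, with PF4 and PPBP at 0. In the epithelial list 3 of 4 reached 10, with sums of 1490 and 1216 and CDH1 at 0 and 0.859, and in the fibroblast list 1 of 3 did, with sums of 14.6 and 14.7.

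Together the 8 annexins made up 1051 ppm of the summed base means (parts in 1000000) in the knockdown experiment and 896 ppm in the inhibition experiment. Of the members, 7 lay above the median of the protein-coding genes with a base mean over 0, which was 409 in the knockdown experiment and 396 in the inhibition experiment. Over only those coding genes that reached a base mean of 10, ANXA4 lay at percentile 51.1 in the knockdown experiment and at percentile 43.4, under the median, in the inhibition experiment. ANXA6, ANXA2 and ANXA11 alone held 68.5% of the family's sum in the first experiment and 72.7% in the other. These shares are of base means, not divided by transcript length. Divided by its longest transcript, ANXA11 held place 6 among the members in both experiments. Divided by coding length, it held place 3 in the knockdown experiment and place 2 in the inhibition experiment. ANXA4 and ANXA3 were the lowest members in both experiments.

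ANXA6, the annexin with the duplicated core, which is linked to endosomes and cholesterol transport, had a base mean of 12694 in the knockdown experiment and of 9310 in the inhibition experiment. By base mean, not divided by length, this placed it at rank 502 and rank 762 among the protein-coding genes. ANXA2 had base means of 8404 and 9824, at ranks 882 and 698. ANXA11, which has a role in the transport of RNA granules on lysosomes, had base means of 8068 and 7717, at ranks 931 and 956. By base mean, ANXA6 and ANXA2 changed places between the experiments. Divided by the longest transcript, the canonical transcript or the coding length, their order was the same in both experiments.

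ANXA7, or synexin, which promotes membrane fusion, had a base mean of 4777 in the knockdown experiment and of 4038 in the inhibition experiment. ANXA1 stood at 3990 and 2480, at ranks 2307 and 3484 among the protein-coding genes. ANXA5 stood at 3533 and 2797. These members form the middle of the family, and by base mean the order of ANXA1 and ANXA5 was the opposite in the inhibition experiment. It was also the opposite per kb of coding length. Per kb of the longest or of the canonical transcript, the order of ANXA1 and ANXA5 was the same in both experiments. ANXA4, known from epithelial cells and from vesicle aggregation, was lower at 1131 and 745, which are percentiles 64.4 and 58.3 of the protein-coding genes with a base mean over 0.

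ANXA3, which is known as an annexin of neutrophil granules, had a base mean of 4.89 in the knockdown experiment and of 2.50 in the inhibition experiment. It was the only member under 10 in either experiment, and ANXA4, the next above it, was 231 times as high in base mean in the first and 298 times in the other. Per kb of the longest transcript these ratios were 154 and 198, and per kb of the canonical transcript 125 and 161. This is a mean of few normalised counts per library, and no interval could be computed from the mean alone.

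**Figure D1:**
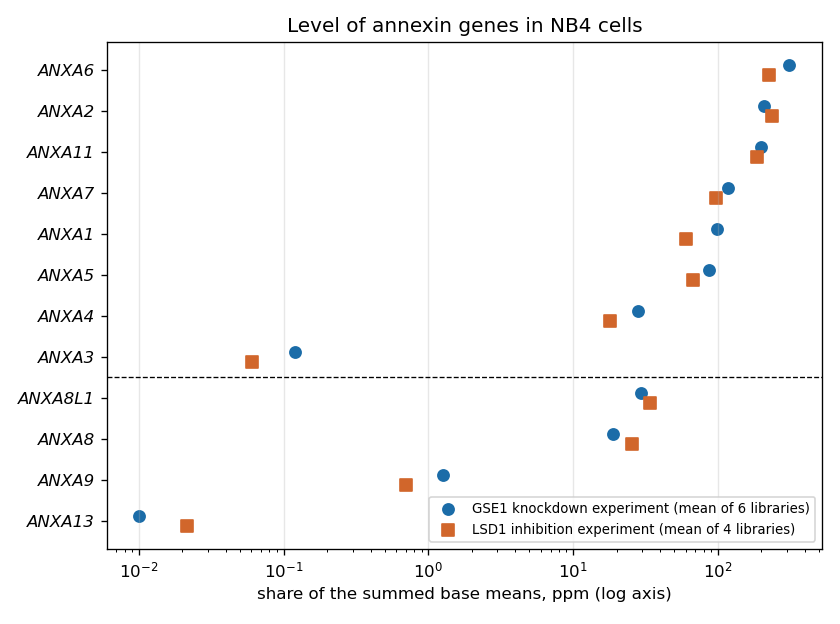
Share of the summed base means, in ppm on a log axis, for the 8 annexins (above the dashed line) and the other protein-coding annexin genes with a base mean over 0 (under it), with circles for the knockdown experiment and squares for the inhibition experiment. Members other than ANXA3 lie between 18.1 and 313 ppm, and ANXA3 lies at 0.121 and 0.0607.

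There are 5 other protein-coding annexin genes in the tables, and 3 of them had base means above that of ANXA3 in the knockdown experiment. ANXA8L1 had base means of 1200 in the knockdown experiment and 1400 in the inhibition experiment, and ANXA8 had 769 and 1049, near the values of ANXA4. The proteins of ANXA8 and ANXA8L1 were identical at 99.4% of residues, so the division of reads between these copies is uncertain. ANXA9 was at 51.0 and 28.9, ANXA13 at 0.410 and 0.882, and ANXA10 was listed at 0 in both. The site shown above is not particular to the members. ANXA8, ANXA8L1 and ANXA13 held 3 complete sites each, with a pair spaced by 160, 160 and 159 residues. ANXA10 held 1 site and no such pair, and ANXA9 held 0 motifs of this kind. ANXA2 has 3 processed pseudogenes in the tables, ANXA2P1, ANXA2P2 and ANXA2P3, which together held 1.25% of the summed base mean of ANXA2 and these copies in the knockdown experiment and 1.17% in the inhibition experiment. Reads that match ANXA2 and a pseudogene equally cannot be told apart.

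Levels of different genes are comparable only per length, since a longer transcript yields more fragments. The length used first was that of the longest annotated transcript in kilobases, whether or not that transcript is protein-coding. On this scale the base mean of ANXA6 in the knockdown experiment was 4394 per kb and that of ANXA2 was 2382 per kb. ANXA5 followed with 2157 per kb, ANXA7 with 1955 per kb and ANXA1 with 1806 per kb. ANXA11 was in the sixth place at 1158 per kb, with a longest transcript of 6965 bases. ANXA4 had 256 per kb and ANXA3 had 1.67 per kb. The order on this scale was the same in the inhibition experiment for all 8 members, from 3223 per kb for ANXA6 to 0.853 per kb for ANXA3.

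The order above ANXA4 depended on the length used. Per kb of the canonical transcript, a scale added after the data were seen, ANXA2 came first at 5408 per kb in the knockdown experiment, with a canonical transcript of 1554 bases against 3528 for its longest, and ANXA6 came next at 4394 per kb. Per kb of coding length the leading members were ANXA2 at 8264 per kb, ANXA6 at 6287 per kb and ANXA11 at 5325 per kb. In the inhibition experiment the values per kb of coding length were 9660 for ANXA2, 5094 for ANXA11 and 4611 for ANXA6. On all of these scales and in both experiments ANXA4 held place 7 and ANXA3 place 8. Which of the neighbours among the other members differ beyond the spread of replicates cannot be told from a mean over libraries. The gap between ANXA7 and ANXA5 in the inhibition experiment was as small as 1.03 times per kb of the longest transcript, and that between ANXA1 and ANXA11 was 1.01 times.

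**Figure D2:**
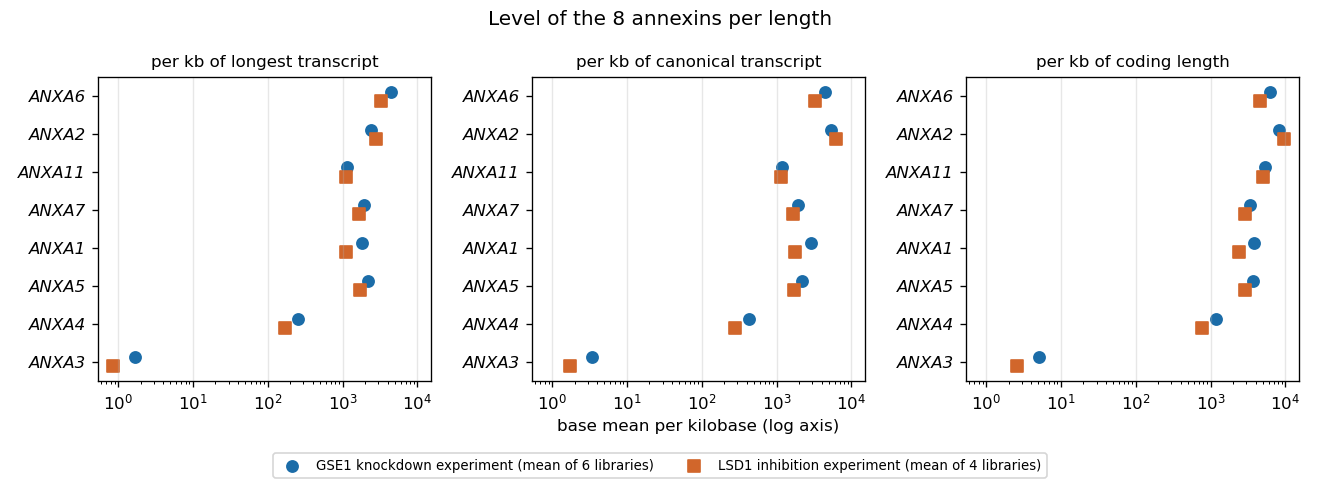
Base mean per kilobase on a log axis for the 8 annexins, divided by the longest annotated transcript (left), the canonical transcript (middle) and the coding length (right), with circles for the knockdown experiment and squares for the inhibition experiment. ANXA4 and ANXA3 hold the lowest places in every panel, while ANXA11 moves from place 6 on the left to place 3 on the right in the knockdown experiment.

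The partners of the annexins form a list of 13 genes, of which 10 reached a base mean of 10 in both experiments. S100A10, the ligand of ANXA2, had base means of 3147 in the knockdown experiment and 2622 in the inhibition experiment. Per kb of the canonical transcript, ANXA2 stood at 1.15 times the level of S100A10 in the knockdown experiment and at 1.62 times in the inhibition experiment. Per kb of the longest transcript the same ratios were 0.508 and 0.713, and per kb of coding length 0.764 and 1.07, so that which of these partners had the higher level depended on the length. S100A11, which binds ANXA1, had base means of 5160 and 5028, and S100A6, a partner of ANXA11, had 1585 and 1234. PDCD6, a calcium sensor that binds ANXA7 and ANXA11, had 5937 and 6405, and SRI, or sorcin, a partner of ANXA7, had 1225 and 1591.

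The receptors of ANXA1 were at the other end of the range. FPR1 had base means of 5.22 in the knockdown experiment and 2.74 in the inhibition experiment, FPR2 had 15.6 and 5.76, and FPR3 had 2.63 and 1.27. ANXA1 itself was at 3990 and 2480. PLA2G4A, the cytosolic phospholipase that ANXA1 inhibits, was at 71.2 and 67.1. AHNAK, a very large protein that binds the complex of ANXA2 and S100A10, had base means of 49358 and 20999 with a longest transcript of 18761 bases, which gives 2631 and 1119 per kb. DYSF, or dysferlin, a membrane repair protein that binds ANXA1 and ANXA2, was at 2715 and 1885, and S100A4 was at 5935 and 3443. ANXA2R, named for a proposed receptor of annexin 2, was at 47.8 and 118.7.

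The experiments were then set side by side through the share of each gene in the summed base means of its own table. The tables were normalised separately, and the experiments differ in vector, agent, time and libraries, so that these causes cannot be told apart, and the ratios carry no test. Of the 7 members whose base means reached 50 in both experiments, 6 had a larger share in the knockdown experiment, as had 58.6% of the 10916 protein-coding genes that passed the same limit. ANXA1 had 98.4 ppm in the knockdown experiment and 60.2 ppm in the inhibition experiment. Its ratio of 1.63 lay at percentile 90.9 of those genes. ANXA4 had 27.9 and 18.1 ppm, a ratio of 1.54 at percentile 88.1.

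ANXA6 had 313 ppm in the knockdown experiment and 226 ppm in the inhibition experiment, a ratio of 1.39. ANXA5 had 87.1 and 67.9 ppm, a ratio of 1.28, and ANXA7 had 117.8 and 98.0 ppm, a ratio of 1.20. The ratio of ANXA11 was 1.06, close to the median of 1.07 over the coding genes. ANXA2 was the only 1 of the 7 with a smaller share in the knockdown experiment, at 207 against 238 ppm, a ratio of 0.869. The central 90% of the coding genes, from the 5th to the 95th percentile, had ratios between 0.657 and 1.85, and the 7 members lay inside it. For comparison, the ratio of GSE1, the gene that the hairpins target, was 0.678, at percentile 6.26, and that of KDM1A, which encodes LSD1, was 1.24. The ratio of GSE1 does not measure its knockdown, because the base mean pools EV with the hairpin libraries.

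**Figure D3:**
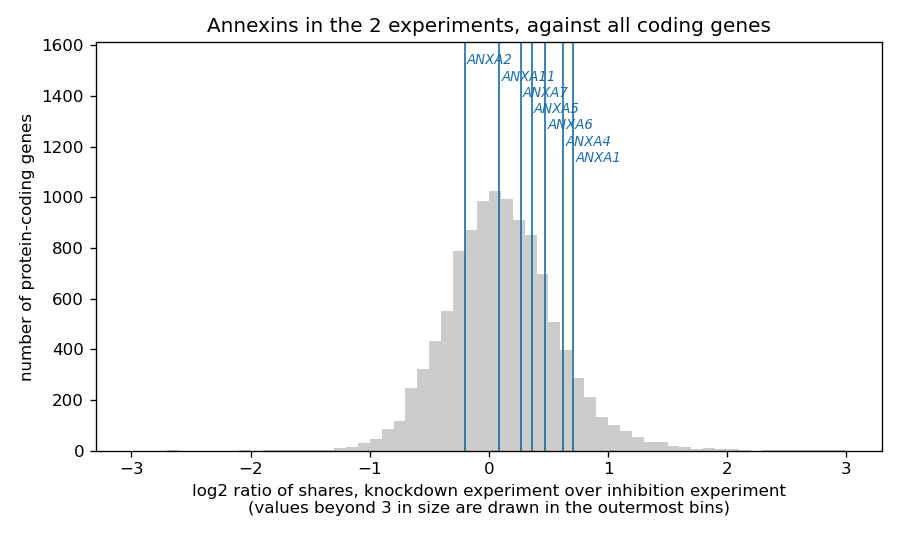
Histogram of the log2 ratio of shares, knockdown experiment over inhibition experiment, for 10916 protein-coding genes, with a vertical line for each of the 7 annexins whose base means reached 50 in both. The lines run from ANXA2, at a ratio of 0.869, to ANXA1, at a ratio of 1.63. They lie between the 5th and the 95th percentile of the genes, with ANXA1 at percentile 90.9 and ANXA4 at percentile 88.1.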

How the data were processed

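mRNA-seq libraries of NB4 cells were prepared by the authors with TruSeq and mapped to hg38 with STAR 2.7, and genes were quantified with RSEM, per the labels and the methods of the study. The annotation release is not given in the sources used here. The deposited signal values are base means, calculated by the authors in DESeq2 as counts divided by size factors and averaged over the libraries of an experiment, and both base mean columns of the knockdown table held equal values (0 genes differed). The deposited tables also hold the authors' own comparisons of each hairpin with EV and of MC2580 with DMSO, that is, fold changes with their standard errors, test statistics and p-values, which were not used. The planned count-based test needs values per library and was not run. Total counts per library were therefore not examined, and no interval was computed.

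Members, other annexins, partners and markers were taken from fixed lists of symbols. These members and lists were chosen with earlier results of these data known. Shares are in ppm, parts in 1000000 of a table's summed base means. Lengths came from GENCODE release 44, in which all 31 identifiers looked up were found by their stable part. Coding sequences were translated and aligned with Biopython 1.88 (BLOSUM62, gap open -11, gap extend -1, free end gaps). The share, percentile and identity calculations were tested on simulated data. Alternatives were other denominators, lengths and a minimum base mean of 10.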

Additional observations from a re-analysis of the deposited data

How the results depend on the processing

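With only protein-coding genes in the denominator, the share of the 8 annexins was 1068 ppm in the knockdown experiment and 913 ppm in the inhibition experiment, and without genes of the mitochondrial genome it was 1097 and 944 ppm. All 32 single-gene shares under these denominators were higher than reported, by at most 5.35%. This rise was fixed in advance, since both denominators only leave out other genes. It is the same for each member within an experiment and denominator. The median level per length in the knockdown experiment, 1881 per kb of the longest transcript, became 3762 per kb of coding length and 2056 per kb of the canonical transcript, a length added after the data were seen. By base mean, not divided by length, the median percentile of the members among protein-coding genes was 87.9 in the knockdown experiment. It was 83.3 over genes whose base mean reached 10 and 84.3 in the inhibition experiment. No paired analysis was possible because the values used are means over libraries, and for the same reason no replicate could be left out and no count-based alternative was run. The precision of a mean could not be given for any gene.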
